A study of Mus musculus with 30 samples.

Results

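Blood progenitors that lack the transcription factor Sp3 were compared with wild-type (WT) progenitors of the same origin. The comparison was defined by the sample labels alone and used 4 of the 30 libraries of the series, 2 from Sp3-/- cells (Sp3KO in the labels) and 2 from WT cells, with every gene of the deposited table considered. All cells came from E14, a mouse embryonic stem cell (ESC) line, and were differentiated in vitro through Flk1-positive cells and a blast culture. Progenitors were sorted on blast culture day 2 as KIT-positive, CD41-positive and Tie2-negative cells, next to 2 haemogenic endothelium populations, HE1 (KIT-positive, CD41-negative, Tie2-positive) and HE2 (KIT-positive, CD41-positive, Tie2-positive). The series holds 5 populations of 3 genotypes, the third being Sp1_deltaDBD, a line that makes a truncated Sp1 without its DNA-binding domain. The Sp3-/- cells are 1 line carrying a complete knockout of the gene, so that whatever else distinguishes this line from the WT line cannot be told apart from the loss of Sp3.

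Sp3 belongs to the Sp and Klf family of zinc finger proteins, which bind GC boxes and related GC-rich or CACCC elements in promoters and enhancers. Sp1 and Sp3 are found in most cell types and recognise the same sequence, and Sp3 can activate or repress depending on the promoter and on its own modification. The progenitors sorted here stand downstream of the endothelial-to-haematopoietic transition, when endothelial genes are turned off and erythroid, megakaryocytic and myeloid genes are turned on. The study asked whether mutation of Sp1 or Sp3 changes gene expression differently at successive stages of this path.

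Expression was given as FPKM (fragments scaled to transcript length and to the mapped fragments of the library), quantile normalised by the authors, so that sequencing depth is unknown and no counting error can be given. The number of genes tied at a library's lowest value, where a gene without reads is placed, was 858 and 910 in the WT progenitor libraries and 1660 and 1199 in the Sp3-/- libraries, and Sp3-/- replicate 1 had the most of all 30 libraries. Because the lowest value itself was 0.000598 and 0.000832 FPKM in WT and 0.0234 and 0.00572 FPKM in Sp3-/-, the 518 genes listed there in all 4 libraries received a log2 fold change of 0.18 without any signal. Over all genes tested the median log2 fold change was 0.04. Log2 values of the replicates correlated across genes with r = 0.970 in WT and r = 0.980 in Sp3-/-, a description in which genes are not independent.

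Sp3 itself, the targeted gene (ENSMUSG00000027109, chr2:72936427-72980446, minus strand, GRCm38), was measured at 58.1 and 35.3 FPKM in the WT progenitors and at 4.81 and 4.10 FPKM in the Sp3-/- progenitors. Both Sp3-/- libraries lay far below both WT libraries, at 46.7 ± 16.1 FPKM against 4.46 ± 0.504 FPKM (mean ± SD, n = 2 each). The log2 fold change was -3.32 ± 0.19 (SE), with an adjusted p of 3.89e-09 by limma. At the other stages Sp3 changed by -3.09 (log2) in ESC, -2.40 in Flk1 cells, -2.47 in HE1 and -3.15 in HE2, so that signal from the locus was reduced at every stage but was not at the lowest value.

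The closest relatives of Sp3 did not differ detectably. Sp1 was measured at 30.4 and 28.5 FPKM in WT and at 31.5 and 29.9 FPKM in Sp3-/-, with a log2 fold change of 0.06 ± 0.17. Sp4, whose product also binds GC boxes, had 2.95 and 2.55 FPKM against 3.35 and 3.38 FPKM (log2 fold change 0.28 ± 0.23), and Sp2 had 7.67 and 5.09 against 6.29 and 6.41 FPKM. Sp5, Sp6 and Sp8 were listed at the lowest value in all 4 libraries. In the Sp1_deltaDBD progenitors Sp4 was higher than in WT by 2.13 on the log2 scale, and the direct comparison of the mutants placed it lower in Sp3-/- by a log2 difference of -1.85 (limma adjusted p = 4.13e-05).

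In the wider Klf family, 4 of 16 genes passed the test, 2 in each direction, against 8.65% of all genes tested. Klf8 had 3.42 and 4.13 FPKM in WT and 12.5 and 11.99 FPKM in Sp3-/-, a log2 fold change of 1.68 ± 0.31. Klf6, a widely expressed gene inducible by stress and injury, had 34.3 and 65.7 FPKM in WT and 18.2 and 16.3 FPKM in Sp3-/-, a log2 fold change of -1.45 ± 0.30. Klf15 rose and Klf12 fell at levels below 2 FPKM. The erythroid factor Klf1 ranged from 12.1 to 43.5 FPKM within WT alone, and its log2 fold change was -0.10 ± 0.83.

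Across the genome, 564 of 14525 genes tested were higher and 693 were lower in Sp3-/- than in WT progenitors (limma, adjusted p below 0.05), or 8.65% of all genes, with 3.88% higher and 4.77% lower. Counts of the gene lists for this comparison are to be read beside these shares. The study's criterion of a fold change above 2, applied without a test, selected 586 higher and 1042 lower genes. With a minimum mean of 3 FPKM in the higher group, which was added here, it selected 196 and 424 (1.35% and 2.92%), of which 107 (0.737% of all genes) and 229 (1.58%) also passed limma. The limma test drew its estimate of spread from all 15 groups of the series. When the spread came from the 6 progenitor libraries alone, 6 genes were higher and 9 lower, and from the 4 libraries compared, 22 and 39. Leaving out Sp3-/- replicate 1 left 161 higher and 242 lower genes, leaving out Sp3-/- replicate 2 left 201 and 387, leaving out WT replicate 1 left 296 and 468, and leaving out WT replicate 2 left 323 and 455. The plot of level against fold change shows where these genes lie.

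**Figure D1:**
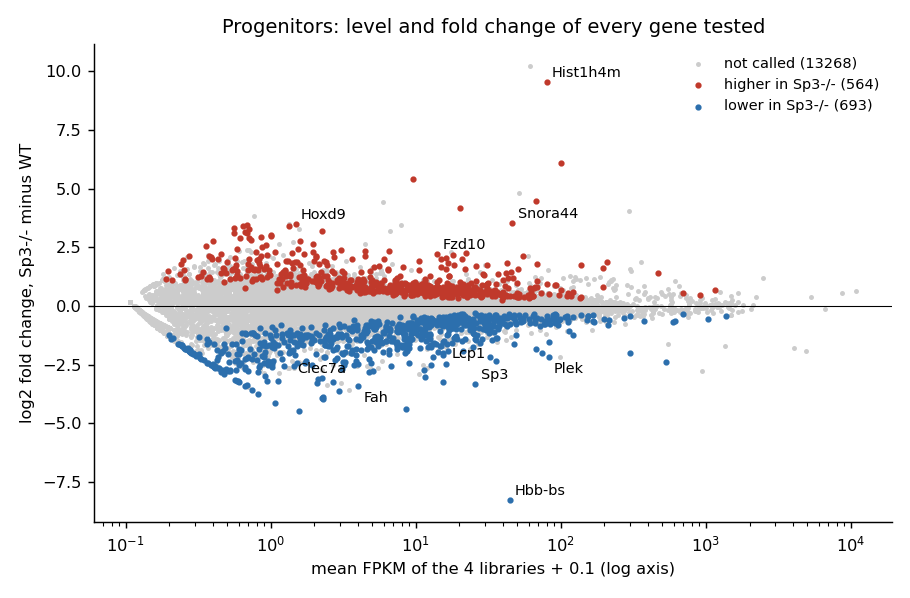
Each point is 1 of the 14525 genes tested, with its mean FPKM over the 4 progenitor libraries plus 0.1 on a log axis and its log2 fold change in Sp3-/- against WT on the y axis. Red points (564) were higher and blue points (693) lower by limma, and Sp3 lies at a log2 fold change of -3.32.

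Of the 162 named genes called, 7 passed the test under every alternative that was fitted. With the spread from the 6 progenitor libraries alone, 154 of the 162 calls were lost. The 7 were Sp3, Fah, Fzd10, Scd3, Batf3, Hbq1a and Tmsb4x, the last described further on. Scd3, Batf3 and Hbq1a had values at the lowest value of a library, and leaving out such genes drops them. Fzd10, a Wnt receptor of the Frizzled family, had 4.27 and 5.54 FPKM in WT and 23.005 and 22.97 FPKM in Sp3-/-, a log2 fold change of 2.22 ± 0.25 (limma adjusted p = 5.09e-05). Fah, which encodes the last enzyme of tyrosine breakdown, had 6.49 and 7.99 FPKM in WT and 0.704 and 0.485 FPKM in Sp3-/-, a log2 fold change of -3.41 ± 0.42 (limma adjusted p = 0.000112). Scd3, a fatty acid desaturase gene, had 0.0317 FPKM and the lowest value in WT and 1.21 and 1.12 FPKM in Sp3-/-. Batf3, a transcription factor of the AP-1 superfamily, had 1.19 and 1.67 FPKM in WT and was listed at the lowest value in both Sp3-/- libraries, and the globin gene Hbq1a, at 2.05 and 1.78 FPKM in WT, was listed there as well. The libraries of the 2 genotypes did not overlap for any of these genes.

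Among the 15 largest rises of genes above 3 FPKM, Fgf3, a secreted growth factor, had 7.38 and 7.69 FPKM in WT and 42.9 and 31.1 FPKM in Sp3-/- (log2 fold change 2.26 ± 0.33). Hand2, a basic helix-loop-helix factor of heart and limb, had 1.89 and 0.883 FPKM in WT and 5.14 and 9.61 FPKM in Sp3-/- (log2 fold change 2.35 ± 0.40). The vesicular GABA transporter gene Slc32a1 rose by 2.31 on the log2 scale, as did the muscle ubiquitin ligase gene Trim54, and Uph, Ypel4 and D130020L05Rik rose by 3.22, 2.39 and 2.64. The remaining members of the top 15 were Hoxd8, the histone genes Hist1h4m and Hist1h2ap, the globin gene Hbb-b1, and the short RNAs Rn4.5s, Scarna3a and Snora44. The histone and globin genes have near-identical copies between which reads can be divided, and Hist1h4m stood at 0.0694 and 0.163 FPKM in WT against 185 and 134 FPKM in Sp3-/-.

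Among the 15 largest falls, Ccl3, a chemokine of macrophages, had 9.42 and 47.0 FPKM in WT and 1.68 and 2.81 FPKM in Sp3-/-, a log2 fold change of -3.22 ± 0.75. Spp1, which encodes the secreted protein osteopontin, had 8.95 and 33.0 against 1.96 and 2.08 FPKM (log2 fold change -3.03 ± 0.78), and Atf3, a stress-inducible factor, had 3.67 and 13.1 against 0.637 and 1.28 FPKM (log2 fold change -2.80 ± 0.53). In each of these WT replicate 2 was well above WT replicate 1, and both lay above both Sp3-/- libraries. Gsap fell by 3.06 on the log2 scale. Hgf, the hepatocyte growth factor, and Arhgap15, a Rac-directed GTPase-activating protein, had 8.33 and 0.244 FPKM and 8.497 and 0.260 FPKM in WT, and both were listed at the lowest value in Sp3-/-. In Pygl, Prelid2, Gm5424, Myo1g and S100a4, 1 Sp3-/- library was listed at the lowest value, and the fold change then depends on the pseudocount.

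Of the myeloid genes, those of granulocytes, monocytes and macrophages, none rose in Sp3-/- progenitors. Of 34 tested genes of the list, 0 rose and 7 fell, against 4.77% of all genes lower, and 30 of 34 had a log2 fold change below 0, with a median of -1.09 against 0.04 for all genes. The 7 were Clec7a, Lcp1, Coro1a, Ptprc, Alox5, Ncf1 and Csf2rb. In bulk libraries of a sorted population, fewer cells of a type and less RNA per cell cannot be told apart.

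Clec7a, the beta-glucan receptor Dectin-1 of phagocytes, had 2.51 and 7.12 FPKM in WT and 0.282 and 0.456 FPKM in Sp3-/-, a log2 fold change of -3.23 ± 0.57 (limma adjusted p = 0.00212). Lcp1, the actin-bundling protein L-plastin of leukocytes, had 37.7 and 17.5 FPKM in WT and 4.72 and 4.497 FPKM in Sp3-/-, a log2 fold change of -2.46 ± 0.44. Ptprc, the pan-leukocyte phosphatase CD45, had 1.603 and 4.93 FPKM in WT and 0.448 and 0.807 FPKM in Sp3-/-, a log2 fold change of -2.05 ± 0.40. For these, as for the other members called, the libraries of the genotypes did not overlap. Coro1a, an actin regulator of leukocytes, had 13.9 and 36.3 against 4.47 and 6.12 FPKM, and Alox5, the 5-lipoxygenase of leukotriene synthesis, had 8.29 and 18.97 against 3.04 and 3.19 FPKM. Ncf1, a subunit of the phagocyte NADPH oxidase, had 4.98 and 14.2 against 1.84 and 2.34 FPKM. Csf2rb, the shared beta chain of the receptors for GM-CSF, IL-3 and IL-5, had 18.3 and 34.4 against 6.15 and 7.09 FPKM, and its close paralogue Csf2rb2, with which reads can be shared, fell by 1.71 on the log2 scale.

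Other defining myeloid genes were lower without passing the test. Spi1, which encodes the master regulator PU.1, had 20.9 and 35.5 FPKM in WT and 12.6 and 12.1 FPKM in Sp3-/- (log2 fold change -1.14 ± 0.51). Csf1r had 1.78 and 3.47 against 1.22 and 1.01 FPKM, and the adaptor gene Tyrobp had 8.80 and 50.4 against 5.19 and 9.02 FPKM. Mpo, the granule peroxidase, overlapped between the groups in no library but stood close, at 28.7 and 66.4 against 27.5 and 26.1 FPKM. Lyz2 and Cd68 overlapped between the groups. Of the chemokine genes noticed beside the list, chosen after their values were seen, Ccl9 fell by 2.71 on the log2 scale, Ccl6 had a log2 fold change of -2.63 ± 1.06 that did not pass, and Ccl4 was at 0.419 and 1.06 FPKM in WT and at the lowest value in Sp3-/-.

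The number of myeloid genes called changed with the library left out. In WT replicate 2, 28 of 34 myeloid genes were higher than in WT replicate 1, and the summed level of the list was 258 and 513 FPKM in WT and 160 and 174 FPKM in Sp3-/-. Without WT replicate 2 the list had 2 genes lower and a median of -0.52, and without WT replicate 1 it had 14 lower and a median of -1.79. Without Sp3-/- replicate 1 it had 2 genes lower, and without Sp3-/- replicate 2 it had 6. In 23 of 34 genes both Sp3-/- libraries lay below the lower-summed WT library, replicate 1.

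Of 35 megakaryocyte and platelet genes tested, 0 rose and 7 fell, against 4.77% of all genes lower. In 29 of 35 the log2 fold change was below 0, and the list median was -0.66. Plek, the protein kinase C substrate pleckstrin of platelets, had 85.4 and 187 FPKM in WT and 29.3 and 26.8 FPKM in Sp3-/-, a log2 fold change of -2.17 ± 0.39 (limma adjusted p = 0.00223). Thbs1, which encodes the secreted thrombospondin 1, had 92.4 and 117 FPKM in WT and 28.1 and 31.0 FPKM in Sp3-/-, a log2 fold change of -1.81 ± 0.40. Coagulation factor V (F5) fell by 1.49 and the tetraspanin gene Cd9 by 0.86 on the log2 scale. Alox12, the platelet lipoxygenase, had 1.22 and 0.762 FPKM in WT and was at the lowest value in both Sp3-/- libraries, and the collagen receptor gene Gp6 and the thromboxane synthase gene Tbxas1 were each at the lowest value in 1. All 7 genes are drawn with the myeloid ones in the plot of values by library.

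**Figure D2:**
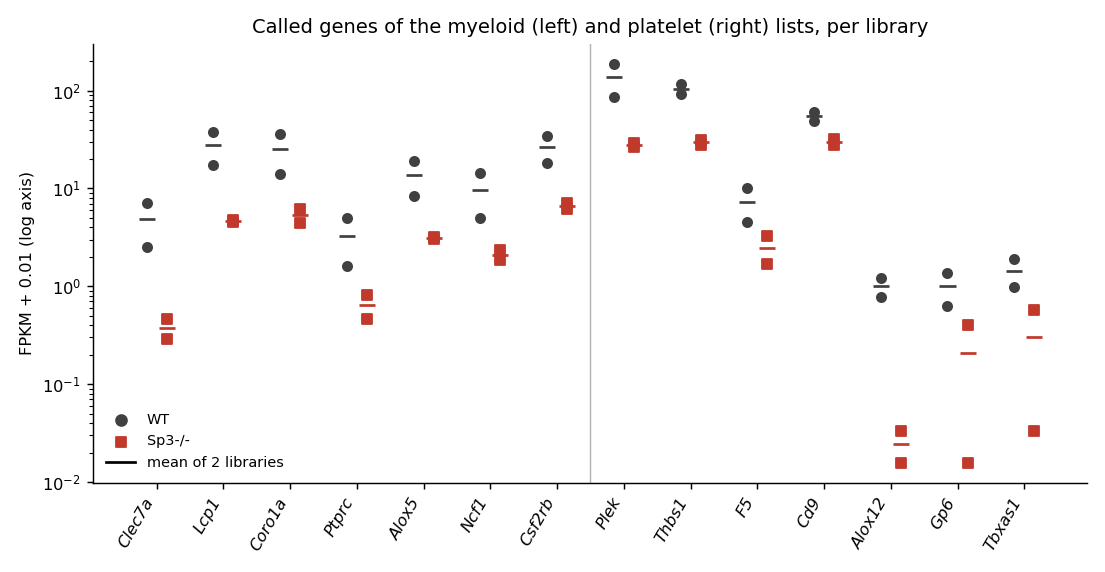
Points are the FPKM (plus 0.01, log axis) of each library for the 7 myeloid genes and 7 platelet genes that were called lower, with circles for WT, squares for Sp3-/- and bars for the mean of 2 libraries. Every Sp3-/- point lies below every WT point of the same gene, and the Lcp1 points run from 37.7 and 17.5 FPKM to 4.72 and 4.497 FPKM.

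Some defining megakaryocyte genes overlapped between the groups. These included Gp9 and Gp1bb, subunits of the platelet receptor for von Willebrand factor. Itgb3, the partner of CD41, had 205 and 233 against 106 and 107 FPKM (log2 fold change -1.03 ± 0.40) and did not pass the test on the pooled spread. Without WT replicate 2 the platelet list had 2 genes lower, and without Sp3-/- replicate 1 it had 3.

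To show what lies before the start of genes that carry these differences, the 150 bases upstream of the first RefSeq promoter entry (GRCm38.p6) are given for a pair of myeloid genes that fell, for Psmb9, described further on, and for Fzd10, which rose under every alternative. Capitals mark GGGCGG or its complement CCGCCC, the core of a GC box bound by Sp proteins, and GAGGAA or TTCCTC, the core of a PU.1 site, each searched on both strands; no printed stretch holds both motifs. Other stretches were searched and are not printed. Those of Coro1a, Ptprc, Tap1 and Psmb8 hold neither motif, those of Ncf1 and Sp3 only the GC box core, and that of Fgf3 only the PU.1 core. The sequences run 5' to 3' along the gene's own strand.
Clec7a (chr6:129472780-129472929, minus strand): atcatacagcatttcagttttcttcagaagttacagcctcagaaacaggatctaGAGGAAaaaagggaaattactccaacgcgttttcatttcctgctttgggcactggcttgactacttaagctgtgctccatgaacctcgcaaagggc
Lcp1 (chr14:75130973-75131122, plus strand): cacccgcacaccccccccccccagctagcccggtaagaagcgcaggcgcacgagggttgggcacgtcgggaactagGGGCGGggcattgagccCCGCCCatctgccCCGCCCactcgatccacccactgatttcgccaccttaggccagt
Psmb9 (chr17:34187331-34187480, minus strand): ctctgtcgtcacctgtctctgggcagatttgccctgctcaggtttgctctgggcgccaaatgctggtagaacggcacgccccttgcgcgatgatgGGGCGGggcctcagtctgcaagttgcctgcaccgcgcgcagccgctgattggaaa
Fzd10 (chr5:128600956-128601105, plus strand): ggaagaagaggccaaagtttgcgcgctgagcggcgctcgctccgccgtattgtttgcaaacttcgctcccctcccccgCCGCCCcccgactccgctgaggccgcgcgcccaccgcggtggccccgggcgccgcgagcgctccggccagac

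In the window of 250 bases before to 50 bases after the start, GGGCGG was present in 63.1% of the 11186 tested genes with a RefSeq promoter, in 59.4% of 404 genes called higher and in 69.1% of 559 called lower. Of 26 myeloid genes with a promoter, 38.5% held GGGCGG and 61.5% held GAGGAA, which was found in 26.6% of all tested genes. Over all 32851 promoters of the table the shares were 35.7% and 28.3%. These are shares of letters in a fixed window and do not show binding.

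Erythroid genes varied widely between replicates. The embryonic beta globin gene Hbb-bh1 had 10321 and 2745 FPKM in WT and 1111 and 2128 FPKM in Sp3-/-, both below both, with a log2 fold change of -1.79 ± 0.64 (not passed). Hba-x had 2745 and 1270 against 325 and 1038 FPKM. Hbb-y had 455 and 447 FPKM in WT and 51.2 and 242 FPKM in Sp3-/- and passed the test, at a log2 fold change of -2.02 ± 0.61 (limma adjusted p = 0.0439). The adult beta globin genes Hbb-b1, Hbb-bs and Hbb-bt are near-identical and moved in opposite directions, and their sum was 111 and 79.8 FPKM in WT and 11.2 and 27.0 FPKM in Sp3-/-.

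Of 24 genes of the red cell membrane and surface, 0 rose and, close to the share of 4.77% lower among all genes, 1 fell. This was Slc4a1, the anion exchanger band 3, with 10.5 and 2.45 FPKM in WT and 0.498 and 1.63 FPKM in Sp3-/- (log2 fold change -2.35 ± 0.59). Among 22 genes of haem synthesis and iron, Steap3, an iron reductase of erythroid endosomes, fell from 6.85 and 2.90 to 1.33 and 0.841 FPKM. The erythroid regulators Gata1 (69.9 and 45.9 against 40.1 and 45.2 FPKM) and Epor (24.7 and 16.8 against 23.7 and 30.5 FPKM) overlapped or nearly so between the groups, as did Alas2.

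Of the transcription factors of blood formation, 1 of 31 rose and 1 fell, near the 3.88% higher and 4.77% lower among all genes. Gata2, a factor of stem and progenitor cells, had 7.65 and 7.35 FPKM in WT and 16.2 and 12.7 FPKM in Sp3-/-, a log2 fold change of 0.93 ± 0.22. Meis1, a homeobox factor of stem cells and megakaryocytes, had 44.5 and 22.5 FPKM in WT and 9.23 and 7.58 FPKM in Sp3-/-, a log2 fold change of -1.91 ± 0.30 (limma adjusted p = 0.000818). Cebpa, a granulocyte factor, had 3.49 and 1.70 against 0.695 and 0.495 FPKM and just missed the threshold.

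The genes of the surface proteins used in the sort were compared next. Kit had 35.2 and 60.7 FPKM in WT and 47.3 and 40.3 FPKM in Sp3-/-, and Itga2b (CD41) had 85.9 and 136 against 81.6 and 102 FPKM, so that both overlapped. Tek, which encodes Tie2 and against which these cells were sorted, had 8.67 and 5.95 FPKM in WT and 13.6 and 17.5 FPKM in Sp3-/-, a log2 fold change of 1.09 ± 0.30 (limma adjusted p = 0.0288). Messenger RNA of Tek was thus present in all 4 libraries and higher in both Sp3-/- libraries. The call was lost with the spread from the 4 libraries compared or from the 6 progenitor libraries.

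Endothelial genes moved in both directions. Of 39 tested, 4 rose and 3 fell, with a median of -0.19, against 3.88% higher and 4.77% lower among all genes. Aplnr, the apelin receptor, had 3.64 and 7.11 FPKM in WT and 12.3 and 18.6 FPKM in Sp3-/- (log2 fold change 1.55 ± 0.31), and its ligand gene Apln rose by 1.77. Hey1, a Notch target, had 2.02 and 2.90 against 6.93 and 7.20 FPKM (log2 fold change 1.51 ± 0.36), and Rasip1, a Ras interactor needed for vessel lumens, rose by 0.93. Those that fell were the Notch ligand gene Jag1, with 4.85 and 8.21 against 1.54 and 1.82 FPKM, the adhesion gene Icam2, and Emcn, which was below 0.4 FPKM in WT. Cdh5, Pecam1, Kdr and Tie1 overlapped between the groups. Leaving out WT replicate 1 left 0 genes higher and 1 lower in this list.

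Among 18 genes of Notch signalling, 1 rose and 3 fell, against 3.88% higher and 4.77% lower among all genes. Beside Hey1 and Jag1, Notch3 had 6.89 and 6.10 FPKM in WT and 3.73 and 3.20 FPKM in Sp3-/-, and the target gene Hes1 had 4.94 and 16.6 against 2.27 and 2.05 FPKM (log2 fold change -2.02 ± 0.62). Hey1 and Hes1, both targets of the pathway, thus moved in opposite directions in the main fit. The Hes1 call was lost at a pseudocount of 1, without the intensity trend and with the GC content and length correction.

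Markers of cells that the gate should not hold set the WT libraries apart from each other. By limma 0 of 32 mesenchymal and smooth muscle genes passed. At an unadjusted p under 0.05 they had 0 higher and 3 lower, against 3396 of all 14525 genes in either direction. Their summed level was 1074 and 539 FPKM in WT and 533 and 511 FPKM in Sp3-/-, and Acta2 alone had 166 and 38.5 against 35.6 and 44.9 FPKM. The summed level of 15 epithelial genes was 155 and 40.7 FPKM in WT and 42.8 and 38.6 FPKM in Sp3-/-, with Epcam at the lowest value in both Sp3-/- libraries. WT replicate 1 was the high library in both lists. The part of such cells in the differences given here was not tested. In the pluripotency list 1 of 24 genes rose, Lin28a, a let-7 binding protein, with 28.7 and 21.7 against 59.8 and 50.1 FPKM, while Nanog was below 0.1 FPKM in all 4 libraries. Of 23 cardiac genes, Hand2 and Gata4 rose and 0 fell. The share of all genes higher, beside which the pluripotency and cardiac counts stand, was 3.88%.

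Small nucleolar RNAs (snoRNAs), which guide the chemical modification of ribosomal RNA and lie mostly in introns of other genes, were the list with the most genes higher. Of 99 tested, 26 rose and 0 fell, against 3.88% of all genes higher, and 69 had both Sp3-/- libraries above both WT libraries, a pattern shown by 32.9% of all genes tested. The median log2 fold change was 0.95. The number higher was 14 without WT replicate 2, 15 without Sp3-/- replicate 1 and 11 without Sp3-/- replicate 2. It was 5 with the spread from the 4 libraries compared and 1 with that from the 6 progenitor libraries. The summed level was 2240 and 1814 FPKM in WT and 4097 and 5222 FPKM in Sp3-/-.

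The sequences of 3 snoRNAs that rose are printed from the GENCODE M21 transcripts (GRCm38) to show what was counted. Capitals mark the boxes C (TGATGA) and D (CTGA) of the C/D class, and the ACA box near the 3' end of the H/ACA class.
Snora3 (chr7:109520120-109520251, plus strand): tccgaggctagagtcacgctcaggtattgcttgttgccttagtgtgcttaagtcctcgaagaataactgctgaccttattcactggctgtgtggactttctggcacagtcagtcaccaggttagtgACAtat
Snord12 (chr2:167065276-167065365, plus strand): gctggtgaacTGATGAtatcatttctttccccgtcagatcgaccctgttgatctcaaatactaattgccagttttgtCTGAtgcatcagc
Snord82 (chr1:86356261-86356330, minus strand): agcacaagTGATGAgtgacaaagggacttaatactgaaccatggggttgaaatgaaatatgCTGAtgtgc

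Snora44, of the H/ACA class (ENSMUSG00000064604, chr4:132309941-132310069, plus strand), had 11.1 and 4.65 FPKM in WT and 76.3 and 92.5 FPKM in Sp3-/-, a log2 fold change of 3.53 ± 0.47 (limma adjusted p = 0.000236). Snora3 had 5.48 and 12.1 against 33.3 and 32.3 FPKM, Snord12 had 8.97 and 4.45 against 33.4 and 25.1 FPKM, and Snord82 had 8.46 and 3.94 against 25.96 and 21.1 FPKM. In all of these both Sp3-/- libraries lay above both WT libraries. The guide RNA of Cajal bodies Scarna3a, at 1.13 and 3.37 against 30.6 and 45.5 FPKM, and the short RNA Rn4.5s, at 5.70 and 5.67 against 127 and 132 FPKM, lie outside the list and rose as well.

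For 92 snoRNAs a host was in the table, and the 68 hosts had a median log2 fold change of 0.00 while the snoRNAs had one of 0.85. The 21 called snoRNAs among them had a median of 1.63 and their 17 hosts one of 0.06, and 0 of these hosts were called by limma. Among all 68 hosts 2 were higher, Dancr at a log2 fold change of 1.29 and 2700038G22Rik at 0.91, and Rack1 was lower at -0.41. Snora44 and Snora61 lie in Snhg12, which had 27.0 and 30.8 FPKM in WT and 42.9 and 34.9 FPKM in Sp3-/- (log2 fold change 0.42 ± 0.26).

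**Figure D3:**
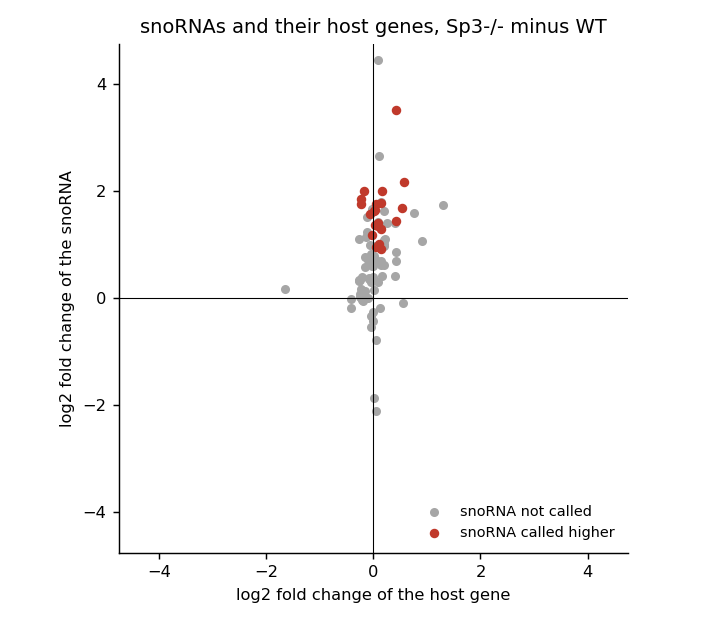
Each point is 1 of 92 snoRNAs, with the log2 fold change of its host gene on the x axis and its own on the y axis, both for Sp3-/- against WT, and red marks those called higher. The snoRNAs have a median of 0.85 and the hosts one of 0.00, with single hosts reaching from -1.66 to 1.29.

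The snoRNA result was set beside transcript length and base composition. Among 131 genes with transcripts under 300 bases, the median log2 fold change was 0.77, and the 32 of them that were not snoRNAs had a median of 0.50 with 2 higher. When a smooth function of GC content and length was removed from each library before the fit, 9 snoRNAs were higher and 3 lower and the median was -0.01. The function was itself fitted to genes that included the snoRNAs. As 99 of the 131 short transcripts were snoRNAs, it can take up a shift that they share, whatever its source. The correction therefore cannot separate such a shift from length or base composition. The median level of the snoRNAs also differed between populations within WT, from 4.77 FPKM in an HE1 library to 23.2 FPKM in an ESC library, and was 10.4 and 9.13 FPKM in WT progenitors and 19.5 and 18.8 FPKM in Sp3-/- progenitors. Clustered histone genes, whose transcripts are also short and mostly lack poly(A) tails, had a median of 0.71 with 63 of 69 above 0. Only 3 passed, against 3.88% of all genes higher. Of the 3, Hist1h1b, at 523 and 595 against 789 and 858 FPKM, has the steadiest values, but its call was lost under the GC content and length correction. The histone median under that correction was 0.35.

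Hox genes, which set position along the body axis, lie in 4 clusters. Of 22 Hox genes tested, 6 rose and 0 fell, against 3.88% of all genes higher. Of the 6, 5 belong to the HoxD cluster, in which 6 genes were tested. Hoxd8 had 1.20 and 3.35 FPKM in WT and 10.6 and 10.5 FPKM in Sp3-/- (log2 fold change 2.33 ± 0.57), and Hoxd4 had 1.02 and 1.77 against 6.79 and 4.68 FPKM (log2 fold change 1.99 ± 0.38, limma adjusted p = 0.00387). Hoxd3, Hoxd9 and Hoxd10 rose from below 0.7 FPKM to between 0.606 and 2.81 FPKM, and Hoxd1, at 1.17 and 3.43 against 3.99 and 4.10 FPKM, did not pass. Hoxb4 was the sixth. The 6 HoxA genes had a median of -1.74 and 0 passed, with Hoxa9 at 4.91 FPKM in WT replicate 1 and at the lowest value in the other 3 libraries. Without Sp3-/- replicate 1 the Hox list had 2 genes higher, and without WT replicate 1 or Sp3-/- replicate 2 it had 3. Without WT replicate 2 it had 6 higher and 4 lower.

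HoxD lies on the same chromosome as Sp3, 1.71 to 1.78 Mb from the Sp3 start, and the region was therefore examined gene by gene, a choice made after these values were seen. Of the 68 other genes tested within 5 Mb, 7 were higher and 2 lower, and 6 of the 7 were among the 8 tested genes of HoxD, antisense and noncoding ones included. Outside HoxD, 60 genes had a median of -0.02, with 1 higher and 2 lower. The 1 was Cdca7, a Myc and E2F target 0.504 Mb from Sp3, with 50.5 and 46.2 FPKM in WT and 81.8 and 81.0 FPKM in Sp3-/- (log2 fold change 0.75 ± 0.10, limma adjusted p = 0.000263). The integrin gene Itga6 fell from 16.9 and 26.1 to 13.1 and 9.85 FPKM, and the ceramide synthase gene Cers6 fell by 0.80 on the log2 scale. Between Sp3 and HoxD the 8 genes tested had log2 fold changes from -0.38 (Ola1) to 0.42 (Chn1), and 0 were called by limma. On the other side Rapgef4 had a log2 fold change of 1.29 that did not pass.

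**Figure D4:**
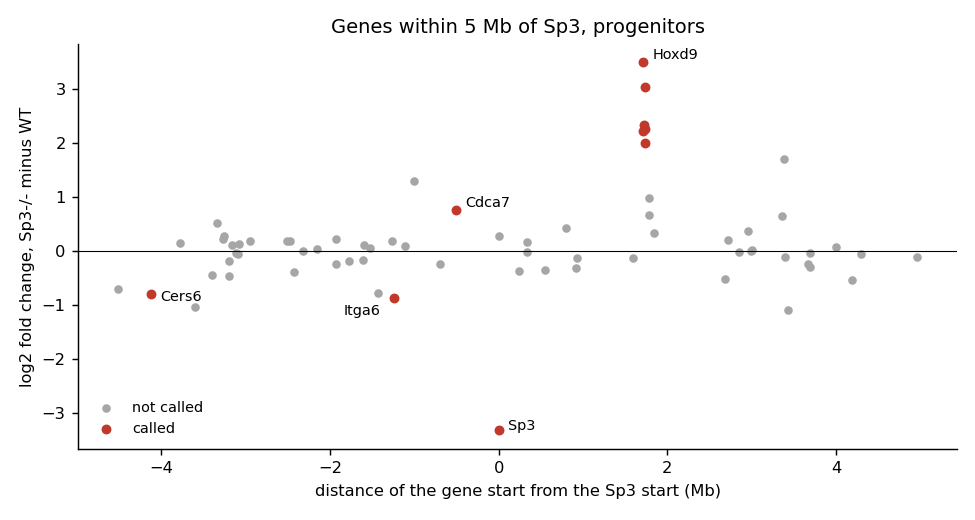
Points are the tested genes within 5 Mb of Sp3, with the distance of each gene start from the Sp3 start in Mb on the x axis and the log2 fold change in Sp3-/- against WT on the y axis, and red marks called genes. A column of HoxD genes stands up to 3.49 at 1.71 to 1.78 Mb, and the 60 other genes lie between -1.10 and 1.69.

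Of 33 cell cycle inhibitors and p53 targets, 0 rose and 6 fell, against 4.77% of all genes lower, with a median of -0.33. In Sp3-/- against WT the list median was -0.42 in HE2, -0.46 in HE1, -0.56 in Flk1 cells and 0.003 in ESC. In Sp1_deltaDBD against the same WT progenitors it was -0.16. Directly between the mutants 3 genes of the list were lower and 2 higher in Sp3-/-, against 6.09% lower and 5.51% higher among all genes. Ccng1, a p53 target, had 160 and 177 FPKM in WT and 77.8 and 67.2 FPKM in Sp3-/-, a log2 fold change of -1.22 ± 0.16 (limma adjusted p = 0.00023). Plk2 had 17.7 and 14.99 against 6.20 and 7.69 FPKM, Cdkn1a, the inhibitor p21, had 19.4 and 18.9 against 11.5 and 10.5 FPKM, and Mdm2, the ubiquitin ligase of p53, had 61.8 and 69.1 against 43.4 and 39.1 FPKM. The death receptor gene Tnfrsf10b fell by 1.05, and Fas, at 1.14 and 1.09 FPKM in WT, was at the lowest value in both Sp3-/- libraries. The WT replicates lay close together in most of these genes. Leaving out any 1 of the 4 libraries left between 3 and 6 of them lower.

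Of 25 genes of the interferon response and antigen presentation, 0 rose and 5 fell, against 4.77% of all genes lower. Ifi35 had 9.76 and 13.3 FPKM in WT and 4.71 and 4.72 FPKM in Sp3-/- (log2 fold change -1.26 ± 0.30). Tap1, the peptide transporter subunit, had 2.99 and 3.96 against 1.69 and 1.25 FPKM. Psmb8, Psmb9 and Oas1a were below 1.5 FPKM in WT and at the lowest value in both Sp3-/- libraries. Psmb8 and Psmb9, catalytic subunits of the immunoproteasome, also belong to the proteasome list, in which 1 of 42 genes rose and 6 fell. In that list Psmd14 fell by 0.53, and Psmb3, Psmd12 and Psme3, all on chromosome 11, fell by 0.60, 0.47 and 0.40 on the log2 scale. Without WT replicate 2 or without either Sp3-/- library, 0 genes of the interferon list passed.

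A group of actin and membrane-binding genes, chosen after the values were seen, had steady replicates. Tmsb4x, the actin-sequestering thymosin beta 4, had 843 and 956 FPKM in WT and 174 and 165 FPKM in Sp3-/-, a log2 fold change of -2.40 ± 0.23 (limma adjusted p = 1e-05). The annexin genes Anxa2, at 53.5 and 52.2 against 12.5 and 10.8 FPKM, Anxa4, at 14.6 and 15.4 against 3.31 and 2.22 FPKM, and Anxa5, at 22.3 and 23.2 against 6.61 and 7.43 FPKM, fell by 2.18, 2.42 and 1.68 on the log2 scale. Anxa1 had a log2 fold change of -2.89 ± 1.01 that did not pass on the pooled spread. S100a10, the partner of annexin A2, fell from 115 and 120 to 29.2 and 30.2 FPKM.

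Of 25 cholesterol synthesis genes tested, 4 rose and 0 fell, against 3.88% of all genes higher. In 24 of 25 the log2 fold change was above 0, and the list median was 0.35. Mvk, the mevalonate kinase, had 13.8 and 14.1 FPKM in WT and 24.6 and 24.1 FPKM in Sp3-/- (log2 fold change 0.80 ± 0.21), and Insig1, Dhcr7 and Acat2 rose by 0.68, 0.62 and 0.60. Leaving out a library left between 0 and 2 of them higher. The heat shock and unfolded protein list had 0 of 25 higher and 3 lower, among them Xbp1, the secretory stress factor, with 31.6 and 30.9 against 17.1 and 18.2 FPKM. Of 24 immediate early genes 0 rose and 3 fell, which were Atf3, Fosl2 and Rgs2. The share of all genes lower was 4.77%.

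In lists of general growth few genes passed, beside shares of 3.88% higher and 4.77% lower among all genes. Of 46 DNA replication genes, 1 rose, Tyms, the thymidylate synthase, and 37 were above 0 with a median of 0.19. Of 35 mitosis genes, 1 fell, Hmmr, at 63.9 and 58.2 against 38.1 and 35.1 FPKM. By limma 0 of 79 respiratory chain genes passed. At an unadjusted p under 0.05, 7 lay above and 2 below 0, against 3396 of all 14525 genes in either direction. Of 86 cytosolic ribosomal protein genes, 2 rose and 3 fell, and among those that fell Rpl27 and Rps27a lie on chromosome 11. The plot of 15 lists shows these medians side by side.

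**Figure D5:**
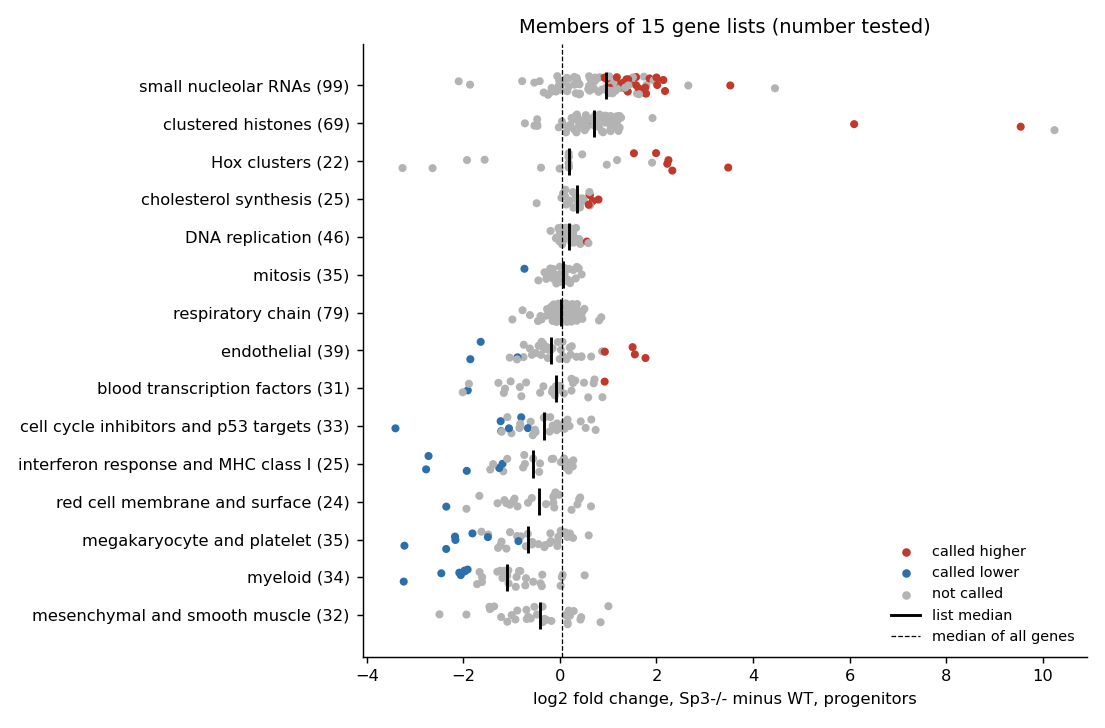
Each point is a tested gene of 1 of 15 lists, placed by its log2 fold change in Sp3-/- against WT progenitors, with red for called higher, blue for called lower and a bar for the list median. The myeloid median lies at -1.09 and the snoRNA median at 0.95, on either side of the dashed median of all genes at 0.04.

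Chromosomes 11 and Y stood apart from the others. Among 972 chromosome 11 genes above 1 FPKM the median log2 fold change was -0.29, and 166 were lower and 6 higher, whereas the other 19 chromosomes had medians between -0.01 and 0.14. On chromosome Y, Ddx3y had 13.6 and 10.9 FPKM in WT and 3.59 and 3.54 FPKM in Sp3-/-, Eif2s3y had 21.7 and 24.1 against 7.60 and 8.11 FPKM, and Uty had 7.56 and 7.10 against 3.35 and 2.44 FPKM. These Y genes were lower in every population, ESC included, where Ddx3y had a log2 fold change of -1.50. The chromosome 11 median was -0.18 in ESC and -0.29 in HE2, and it was -0.37 for Sp1_deltaDBD against the same WT progenitors. Leaving out chromosomes 11 and Y, 463 of 10401 such genes were higher and 385 lower. The following list need not be complete and does not cover the snoRNA hosts, Rack1 among them. Of the genes described above as lower by the test, Plek, Alox12, Meis1, Ccl3, Ccl4, Ccl9, Myo1g, Hbq1a, Slc4a1, Icam2, Ifi35, Ccng1, Xbp1, Hmmr, Psmb3, Psmd12, Psme3, Rpl27 and Rps27a lie on chromosome 11. Mpo, Ccl6, Itgb3 and Hba-x, which were lower without passing, lie there too, as does Hoxb4, which rose. Their place on this chromosome and the loss of Sp3 cannot be told apart in these genes.

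Whether the effect of the knockout differed by stage was tested as a difference of fold changes. Against HE2, the neighbouring population, 4 of 14525 genes passed (0.0275%, with 0.00688% positive and 0.0207% negative), and 836 had an unadjusted p below 0.05. Lyve1, a hyaluronan receptor of lymphatic and some embryonic endothelium, was the 1 positive difference, at 1.49 and 3.27 FPKM in WT progenitors and 1.44 and 1.45 FPKM in Sp3-/- progenitors, but 47.3 and 33.2 against 2.78 and 2.99 FPKM in HE2. Rbm18 had 12.7 FPKM in both WT and 5.23 and 5.92 FPKM in both Sp3-/- progenitor libraries, and 15.4 and 16.4 against 19.4 and 15.98 FPKM in HE2. The other 2 were Batf3 and Hbq1a. Deviations of same-numbered HE2 and progenitor libraries correlated with r = 0.473 in WT and r = 0.167 in Sp3-/-. With the replicate number as a block across populations all 4 calls were lost, at limma adjusted p-values of 0.315 for Lyve1, 0.3 for Rbm18, 0.239 for Batf3 and 0.21 for Hbq1a. This fit used only the libraries compared, not the whole series. With the spread from those libraries and no block, the calls of Lyve1, Rbm18 and Batf3 were lost as well. Their loss therefore cannot be assigned to the block. Of the myeloid, platelet, snoRNA and Hox genes 0 passed this test, and in HE2 their lists had medians of -1.05, -0.52, 0.67 and 0.67.

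Against ESC, 107 genes had a more positive and 88 a more negative effect in progenitors (0.737% and 0.606%, 1.34% in all). Meis1, Plek, Alox12, Cdkn1a and Tmsb4x were among the more negative, and Snora3, Snord34, Snord35a, Kdr and Cdca7 among the more positive, names taken from the lists after the values were seen. Of the myeloid genes 0 passed, and their median in ESC was 0.06. The platelet and red cell lists had a median of 0.00 in ESC, where the lowest value was 0 FPKM. A gene without reads in ESC shows no effect there, and its difference then reflects progenitor values alone. How many of the differences from ESC arise in this way was not tested.

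The mutants of Sp3 and Sp1 were compared directly within progenitors, so that the differences do not use the WT values. The WT libraries still entered the estimate of spread, which came from all 15 groups. In Sp3-/- 801 genes were higher and 884 lower than in Sp1_deltaDBD (11.6% in all, 5.51% higher and 6.09% lower). With the spread from the libraries compared alone, 17 genes were higher and 13 lower. Of 34 myeloid genes 8 were lower and 1 higher in Sp3-/-. Ptprc had 0.448 and 0.807 FPKM in Sp3-/- and 5.36 and 5.11 FPKM in Sp1_deltaDBD, a log2 difference of -2.92 ± 0.40 (limma adjusted p = 0.000119), Clec7a had 3.09 and 2.46 FPKM in Sp1_deltaDBD, and Lcp1 had 21.1 and 22.2 FPKM there. Itgb2, Cd53, Ncf1, Ncf4 and Csf2rb were the others lower, and Csf2ra was the 1 higher.

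Platelet and red cell genes differed between the mutants as well. Of all genes, 6.09% were lower and 5.51% higher in Sp3-/- in this comparison. Of 35 platelet genes 12 were lower in Sp3-/-, including Tubb1, the platelet beta tubulin, with 9.69 and 14.4 FPKM against 71.3 and 65.7 FPKM, Clec1b, with 1.68 and 3.09 against 18.2 and 13.4 FPKM, and Vwf, with 1.24 and 1.62 against 5.01 and 12.9 FPKM. Of 24 red cell membrane genes 7 were lower, including Slc4a1. Of 99 snoRNAs 16 were higher and 0 lower in Sp3-/-, with Snora44 at 13.8 and 14.9 FPKM in Sp1_deltaDBD. Of 22 Hox genes 7 were higher, 6 of them in HoxD, and Hoxd4 had 1.31 and 1.34 FPKM in Sp1_deltaDBD.

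Among the largest differences between the mutants, Tmem159, Apoc1 and Gm12070 were at the lowest value in both Sp1_deltaDBD libraries and at 2.73 FPKM or more in Sp3-/-. H19, an imprinted noncoding RNA, had 45.3 and 52.6 FPKM in Sp3-/- and 3.86 and 0.669 FPKM in Sp1_deltaDBD. Usp26 and Trap1a, genes of the X chromosome, had 23.5 and 16.3 FPKM and 38.3 and 12.1 FPKM in Sp1_deltaDBD and were below 0.3 FPKM in Sp3-/-, and 4930447C04Rik and Hbb-bt were likewise higher in Sp1_deltaDBD.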

How the data were processed

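RNA was measured by ribosomal RNA-depleted, stranded sequencing of sorted mouse cells, with 2 biological replicates per group and 30 libraries in 15 groups. The authors aligned reads to mm10 with HISAT2 2.1.0, estimated FPKM with StringTie 1.3.3, dropped genes that no sample held above 1 FPKM, quantile normalised the values and deposited them as 1 table of 14685 genes. Depth cannot be recovered from these values, and quantile normalisation gives every library the same distribution.

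All genes were tested on log2(FPKM + 0.1) with limma 3.58.1 in R 4.3.3, using 15 group means over 30 libraries, an intensity trend and Benjamini-Hochberg adjustment at 0.05. Fold changes are on this scale and understate changes of low genes. The 14525 genes above 1 FPKM in at least 1 sample were tested, and the code was tested on simulated data. An exact permutation test of 2 against 2 cannot go below 0.333. P-values measure only the spread between these samples. The study's rule of a fold change above 2 was also applied, without a test. Symbols were matched to GENCODE M21 and promoters to RefSeq.

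Genes named are the Sp and Klf families, the 15 largest rises and falls among called genes above 3 FPKM whose groups do not overlap, called list members (further members by size up to 4), the sort markers, and the 4 largest differences in each direction between populations or mutants. The comparison and the lists were chosen with earlier results of these data known. Alternatives changed the pseudocount, filter, trend, samples in the fit, GC content and length correction, replicate left out and replicate block, and 1, leaving out genes at the lowest value of a library, was chosen after seeing the data.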

Additional observations from a re-analysis of the deposited data

Results flagged for a closer look

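The effect of the knockout differed from that in HE2 for 4 genes by limma's test of the difference, given as the log2 effect in progenitors minus that in HE2. Lyve1 differed by 3.16, Hbq1a by -4.28, Batf3 by -3.23 and Rbm18 by -1.32. Hbq1a was at the lowest value in all 4 HE2 libraries compared. All 4 calls were lost with the replicate number as a block across populations, in a fit to the libraries compared alone.

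Against ESC 195 genes differed by the same test. The most negative differences were -5.99 for Snord23, -4.35 for Prr7, -4.03 for Pcsk1n and -3.98 for Tspan17. The most positive were 4.05 for Gm8764, 4.30 for Gm6763, 4.53 for Scd3 and 4.99 for Gm21293, the last of which was at the lowest value in all 4 progenitor libraries, so that its difference reflects ESC values alone.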

How the results depend on the processing

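With the spread estimated in the 6 progenitor libraries alone, limma called 6 genes higher and 9 lower against WT and 68 and 77 against Sp1_deltaDBD, and in the samples compared alone 22 and 39, and 17 and 13. Leaving out 1 library left 161 to 323 higher and 242 to 468 lower against WT, and 308 to 900 and 422 to 694 against Sp1_deltaDBD. For the difference from HE2, with 1 gene higher and 3 lower, the counts higher were 3 in the samples compared alone and 4 at a pseudocount of 1, and the counts lower were 7 at a pseudocount of 1, 1 with a block across populations and 1 without genes at the lowest value of any library compared, while leaving out 1 library gave 1 to 10 and 2 to 26. For the difference from ESC, with 107 and 88, the counts were 34 and 47 in the samples compared alone, 241 and 244 at a pseudocount of 1, 67 and 54 without genes at the lowest value, and 15 to 101 and 5 to 83 without 1 library. The fold change rule, with 196 higher and 424 lower, gave 130 higher at a pseudocount of 1, 123 higher with the GC content and length correction, 586 and 1042 with no minimum mean, and 74 and 182 when all 4 pairs had to pass. Under the GC content and length correction Snord100 and Snord34 turned to log2 fold changes of -0.049 and -0.12. The cause of these changes was not tested. The labels do not say whether same-numbered libraries of different genotypes were made together. Deviations of same-numbered WT and Sp3-/- progenitor libraries correlated with r = 0.030 over 9343 genes. This single value from 1 population cannot decide the question. With the replicate block 707 genes were higher and 894 lower against WT, 2 were higher in the difference from HE2, and 162 and 152 in that from ESC.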
